A study of Homo sapiens with 12 samples.

Results

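The genes described here encode retinoic acid receptors, a binding protein and enzymes of retinoid metabolism. They are the 9 symbols *RARA*, *RARB*, *RARG*, *RXRA*, *RXRB*, *CYP26A1*, *CYP26B1*, *DHRS3* and *CRABP2*, taken by name from the 23292 symbols that each deposited table lists. All 9 were found under these symbols. RNA came from 12 samples of HEK293T cells labelled WT, a human embryonic kidney line whose growth protocol calls it HEK293. For 6 h, 3 samples received DMSO as the vehicle, 3 received 10 µM AA263, 3 received 10 µM AA263yne and 3 received 10 µM AA263-5. The compounds belong to a study of small molecules that activate the endoplasmic reticulum stress sensor ATF6. The measure used here is a single mean normalized value per gene, which the authors computed over all samples of their fit, so 9 of the 12 samples behind it were treated with a compound. The authors' own comparisons with vehicle were not used, and the levels in each group and the spread between samples were not analysed here. No compound was compared with vehicle or with another compound.

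Retinoic acid is made from vitamin A. Retinol is oxidised to retinal and then, irreversibly, to retinoic acid, which enters the nucleus and binds a receptor of the RAR family. RARs work as dimers with RXR proteins on direct repeats of a short DNA sequence, where they hold corepressors without ligand and recruit coactivators with it. Cells limit the signal by breaking down retinoic acid with CYP26 enzymes and by returning retinal to retinol, and genes of this feedback are among the best known targets of the receptors.

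All 9 genes had a mean of at least 10, and 7 had a mean of at least 100, limits that 15638 (67.1%) and 11642 of the 23292 symbols reached. Over all 23292 symbols the median of the mean normalized values was 99.7. Of the 9 genes, 7 lay above it. Among the 15638 symbols with a mean of at least 10 the median was 571, and 3 of the 9 genes, *RXRB*, *RARA* and *RXRA*, lay above that. To set different genes side by side, each mean was divided by the length of the canonical transcript of GENCODE 44, which gives a value per kilobase. On this scale the 3 enzymes *CYP26A1*, *DHRS3* and *CYP26B1* held the last places, below all receptors, their partners and the binding protein, except that *RARB* lay below *CYP26A1* with the longest transcript (45.4 against 56.3) and below *CYP26A1* and *DHRS3* with the union of exons (23.6 against 42.6 and 26.6).

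**Figure D1:**
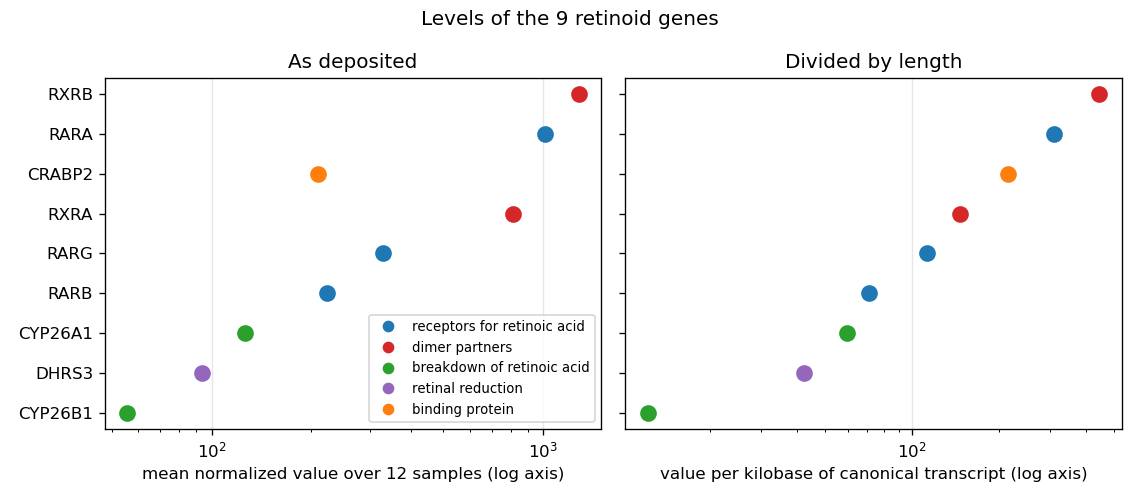
Mean normalized value over the 12 samples as deposited (left) and divided by the length of the canonical transcript in kilobases (right), both on log axes, with 1 point per gene coloured by role and no error bars, since the value is a mean over all groups. *RXRB* and *RARA* are highest on both scales and *CYP26B1* is lowest, while *CRABP2*, which has the shortest transcript, moves from place 6 as deposited to place 3 per kilobase.

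Of the retinoic acid receptors, *RARA* gave the largest signal. *RARA*, on chromosome 17 of GRCh38 from 40309180 to 40357643 on the plus strand, had a mean of 1014 (percentile 74.2, the percentage of all symbols with a lower mean) and 309.7 per kilobase. *RARG*, on chromosome 12 from 53210567 to 53232980 on the minus strand, had a mean of 329 (percentile 60.4) and 113 per kilobase. With the union of exons as length, *RARG* had 64.3 per kilobase, against 214 for *RARA*. *RARB*, on chromosome 3 from 24687887 to 25597932 on the plus strand, had a mean of 223 (percentile 56.7) and 71.0 per kilobase. Per kilobase, *RARA* made up 62.7% of the summed signal of these genes, *RARG* 22.9% and *RARB* 14.4%, but the share of *RARB* was 9.71% with the longest transcript and 7.81% with the union of exons. *RARA* is the receptor present in most tissues, whereas *RARB* is itself a classical target of retinoic acid. The order of the receptors was the same with the longest transcript, the union of exons or no division by length.

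Both dimer partners were detected, and *RXRB* stood above *RXRA*. *RXRB*, on chromosome 6 from 33193588 to 33200665 on the minus strand, had the highest mean of the 9 genes, 1283 (percentile 77.6), or 445 per kilobase. *RXRA*, on chromosome 9 from 134317098 to 134440585 on the plus strand, had a mean of 809.5 (percentile 71.1) and 146 per kilobase. With the union of exons as length, *RXRA* had 67.0 per kilobase, against 329 for *RXRB*. *RXRB* made up 75.3% of the summed signal of these genes per kilobase and 61.3% without division by length, because the canonical transcript of *RXRA* has 5537 bases and that of *RXRB* 2885. RXR proteins also pair with receptors for vitamin D, thyroid hormone, fatty acids and oxysterols, so this signal does not belong to retinoic acid signalling alone.

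The enzymes that break down retinoic acid were lower. *CYP26A1*, on chromosome 10 from 93073475 to 93077885 on the plus strand, had a mean of 126 (percentile 51.9) and 59.7 per kilobase. *CYP26B1*, on chromosome 2 from 72129238 to 72147862 on the minus strand, had a mean of 55.7 (percentile 45.6) and 12.2 per kilobase, the lowest of the 9 genes on either scale. Per kilobase, *CYP26A1* made up 83.0% of the summed signal of these enzymes and *CYP26B1* 17.0%, against 69.4% and 30.6% without division by length. Both encode cytochrome P450 enzymes that oxidise retinoic acid to polar products.

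*DHRS3* encodes a reductase that returns retinal to retinol and so lowers the supply of retinoic acid. It lies on chromosome 1 from 12567910 to 12618210 on the minus strand and had a mean of 93.6 (percentile 49.5), or 42.5 per kilobase. *CRABP2* encodes a small protein that carries retinoic acid to its receptors in the nucleus. It lies on chromosome 1 from 156699606 to 156705816 on the minus strand and had a mean of 209.6 (percentile 56.2), or 215 per kilobase. With a canonical transcript of 974 bases, *CRABP2* held place 3 of the 9 genes per kilobase, above *RXRA* and 2 of the RAR genes.

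From highest to lowest per kilobase, the order was *RXRB*, *RARA*, *CRABP2*, *RXRA*, *RARG*, *RARB*, *CYP26A1*, *DHRS3* and *CYP26B1*. Neighbours in this order differed by a ratio of between 1.19, for *RARB* over *CYP26A1*, and 3.47, for *DHRS3* over *CYP26B1*. The latter ratio was 2.31 with the union of exons and 1.68 as deposited. With the union of exons, *CRABP2* over *RXRA* rose from 1.47 to 2.89, while *RARA* over *CRABP2* fell from 1.44 to 1.10. On the deposited scale *CRABP2* lay below *RXRA*, *RARG* and *RARB*, and *RARA* exceeded it by a ratio of 4.84. The spread over samples of these means was not analysed here, so which neighbours differ beyond it cannot be said. The pair *RARB* and *CYP26A1* changed places when the longest transcript or the union of exons was used.

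**Figure D2:**
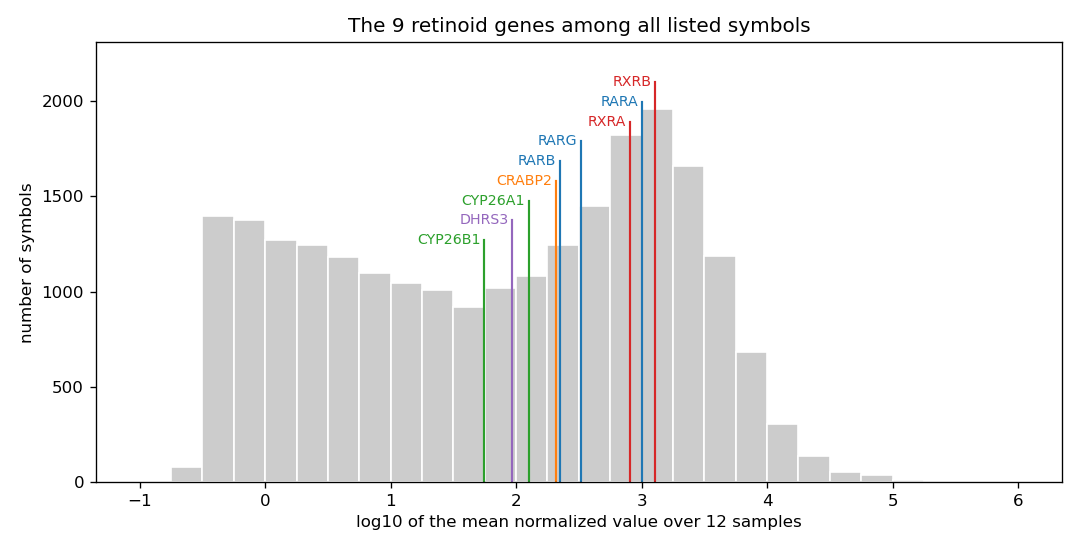
Number of symbols (vertical axis) by log10 of the mean normalized value over the 12 samples, in bins of 0.25, for all 23292 symbols, with a vertical line for each of the 9 genes whose height carries no value. The genes span means from 55.7 for *CYP26B1* to 1283 for *RXRB*, and none lies among the symbols with a mean under 10 at the left.

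The receptors are paralogs, so it was asked how far short reads could have been counted to the wrong gene. Of all distinct windows of 50 bases in the GENCODE 44 transcripts of the 9 genes, the read length that the methods state, 0 were shared between any of the 9 genes. The longest exact runs that canonical transcripts of paralogs share are shown here because they mark how close these genes come to each other. All lie in coding sequence and are written from the 5′ end of the sense strand.
RARA and RARG, 39 bases: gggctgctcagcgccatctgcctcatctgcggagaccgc
RARA and RARB, 29 bases: taccactatggggtcagcgcctgtgaggg
RXRA and RXRB, 22 bases: tgctgcgggcaggctggaatga
The run shared by *RARA* and *RARB* belongs to the part that encodes the DNA-binding domain, and the other runs to the part that encodes the ligand-binding domain. The run common to *RARB* and *RARG* had 18 bases and that of *CYP26A1* and *CYP26B1* 11 bases. All of these runs are shorter than 50 bases.

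Reads could still be shared with genes outside the list. In *CYP26A1*, 23.4% of the windows of 50 bases also occurred in the transcripts of ENSG00000285846, a gene on the same strand that overlaps its exons by 750 bases. In *RARA* this share was 16.0%, all of it with genes on the opposite strand, among them *RARA-AS1* with 556 exon bases in common and a mean normalized value of 22.0. In *RXRB* it was 7.84%, from an overlap of 361 exon bases with *SLC39A7* on the opposite strand, a zinc transporter gene with a mean of 3668. The share was 0.905% in *RARB* and 0.108% in *RXRA*, and 0 windows were shared in *RARG*, *CYP26B1*, *DHRS3* and *CRABP2*. The labels describe libraries that keep the strand of the RNA. Whether the counting used it is not given in the sources used here, and the part of these overlaps in the levels of *RXRB*, *RARA* and *CYP26A1* was not tested.

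The promoters of these genes were searched for a direct repeat of the hexamer AGGTCA, or AGTTCA, or GGGTCA, or also GGTTCA, in any pair with 5 bases between them, the arrangement best known for RAR and RXR dimers. RefSeq on GRCh38.p14 gives 19 promoter windows for the 9 genes, each from 250 bases before to 50 bases after a transcription start, and all 9 genes matched. Such a repeat, on either strand, was found in 1 of the 4 windows of *RARB* and in 1 of the 2 windows of *CYP26A1*. Among all 35116 RefSeq windows of this length, 0.0883% held one, or 31 windows. The repeats are shown because *RARB* and *CYP26A1* are the genes of this list that share the feature. Each is written 5′ to 3′ on the plus strand, which is the strand of both genes, with the hexamers in capitals and 6 bases on either side.
RARB, chr3:25428204-25428232: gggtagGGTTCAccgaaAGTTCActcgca
CYP26A1, chr10:93073797-93073825: taaagaTGAACTttgggTGAACTaattgt
In *RARB* the hexamers read along the gene, and in *CYP26A1* on the opposite strand, so that the capitals show their reverse complement. The *RARB* repeat lies at positions -53 to -37 from the start at 25428263, and the *CYP26A1* repeat at positions -90 to -74 from the start at 93073893. Those positions are also where the canonical GENCODE 44 transcripts of both genes begin, so the repeats lie upstream of them. Of the 23 annotated *RARB* transcripts, 8 have the repeat in an intron and 3 in a noncoding part of an exon, and of the 6 *CYP26A1* transcripts 1 has it in a noncoding part of an exon. The other 17 windows held no such repeat, those of *DHRS3*, *CYP26B1* and *CRABP2* included, which says only that these letters are not in them.

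**Figure D3:**
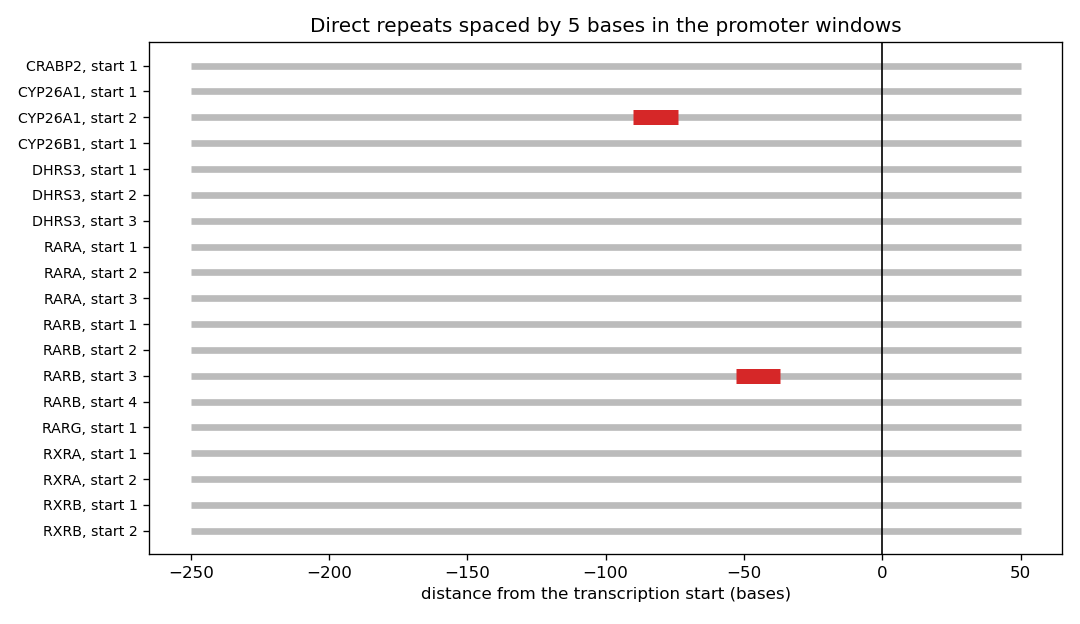
Each grey bar is a RefSeq promoter window of 300 bases of 1 of the 9 genes, drawn against the distance from its transcription start in bases, with starts numbered by position on the chromosome. Red blocks mark direct repeats of the hexamers with 5 bases between them, which occur in 1 window of *CYP26A1* and 1 window of *RARB*.

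Binding of the receptors to these repeats was not measured in this series. Both genes that carry one were detected, *RARB* at 71.0 and *CYP26A1* at 59.7 per kilobase. Of the 7 genes whose windows held none, *DHRS3* at 42.5 and *CYP26B1* at 12.2 lay below them and the other 5 above, while by the deposited mean *CRABP2* at 209.6 also lay below *RARB* at 223. With the union of exons as length, *DHRS3* at 26.6 lay above *RARB* at 23.6. How these levels respond to the compounds or to retinoic acid was not analysed here.

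Around the 9 genes, 31 other genes of the pathway were read from the same tables by role. Of these, 28 were listed, 19 of them with a mean of at least 10 and 13 with a mean of at least 100. These are 67.9% and 46.4% of the listed genes, close to the share of all symbols, of which 67.1% and 11642 of 23292 reached these limits. *RBP2*, *CRABP1* and *CYP26C1* were not analysed here. All 6 coregulators read had a mean of at least 100. The corepressor gene *NCOR1*, whose protein sits on receptors without ligand, had a mean of 9113 and 851 per kilobase, higher than any of the 9 genes. The coactivator genes *NCOA1*, *NCOA2* and *NCOA3* had 215, 174 and 146 per kilobase, within the range of the receptors, although as deposited *NCOA1* at 1586 and *NCOA2* at 1464 exceeded *RXRB* at 1283. *MED1*, which encodes a Mediator subunit that receptors contact with ligand, had a mean of 6074 and 746 per kilobase, also above all 9 genes.

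Some genes for enzymes that act on retinol, retinal and retinoic acid were detected, and others had means below 10. Of the 8 genes for enzymes that interconvert retinol and retinal, 6 had a mean of at least 10. Of all 23292 symbols, 67.1% reached this limit. *RDH10*, which encodes the main enzyme that oxidises retinol to retinal, had a mean of 531 and 134 per kilobase. *RDH11*, *RDH13*, *RDH14* and *DHRS4*, whose products are known mainly for reducing retinal, had 835, 834, 344 and 489 per kilobase. With the union of exons as length, *RDH11* had 386 per kilobase and *RDH13* 181, below *RDH14* at 338 and *DHRS4* at 286. *DHRS9* and *RDH5* had means of 0.350 and 2.05. Of the 3 enzymes that make retinoic acid from retinal, *ALDH1A2* had a mean of 1158 and 342 per kilobase, *ALDH1A3* a mean of 30.0 and *ALDH1A1* a mean of 4.50. Per kilobase, *ALDH1A2* thus lay above *CYP26A1*, which removes its product, and above every receptor of the list other than *RXRB*, although with the union of exons it had 142 against 214 for *RARA*.

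Genes for uptake, transport in blood and storage were mostly low. Of the 6 that were listed, 2 had a mean of at least 10, *DGAT1* and *LRAT*, with means of 1166 and 16.3. Among all 23292 symbols, 67.1% had such a mean. *DGAT1*, which makes triglycerides as well as retinyl esters, was also highest per kilobase, at 319. The means were 4.02 for *STRA6*, the cell surface receptor for retinol carried in blood, 1.22 for *RBP4* and 1.25 for *TTR*, its carriers, and 1.38 for *BCO1*, which cleaves carotene. *FABP5*, which also binds retinoic acid, had a mean of 83.4 and 123 per kilobase, against 215 for *CRABP2*. With the union of exons these were 43.8 and 194 per kilobase. *RXRG*, the remaining RXR gene, had a mean of 46.5 and 23.6 per kilobase, below *RXRA* and *RXRB*. Of the further genes known as targets of retinoic acid in other cells, *TGM2* had a mean of 50.4, *RARRES1* of 0.650 and *CDX1* of 0.467.

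**Figure D4:**
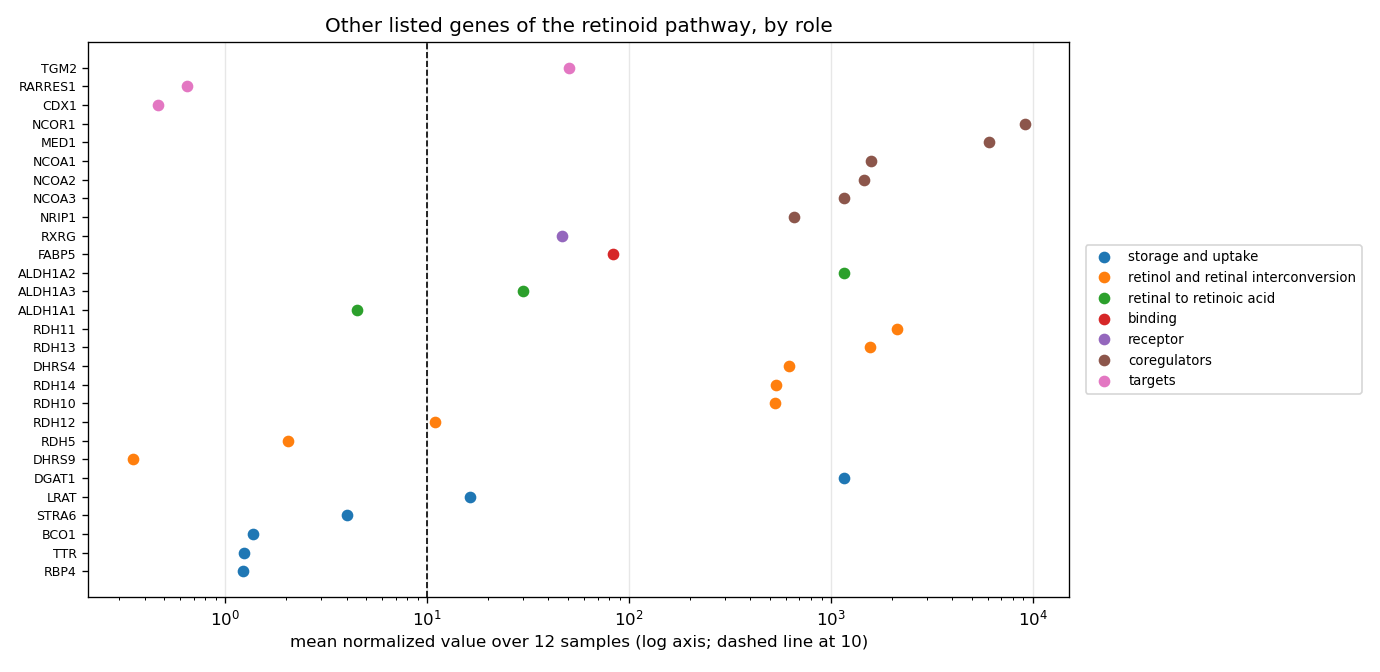
Mean normalized value over the 12 samples on a log axis for the 28 listed genes of the retinoid pathway other than the 9 described first, 1 point per gene, coloured and grouped by role, with a dashed line at 10. The coregulators all lie above 100, from *NRIP1* at 659 to *NCOR1* at 9113, while 9 genes lie left of the line, from *DHRS9* at 0.350 to *ALDH1A1* at 4.50.

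The label of the cells was checked against marker genes. *VIM*, *NEFM* and *LIN28B*, which HEK293 cells are known to express, had means of 18797, 3786 and 631. Markers of hepatocytes (*ALB*, *APOA1*), blood cells (*PTPRC*, *CD3E*) and endothelium (*PECAM1*) had means from 0.488 to 4.79, and *COL1A1*, which marks fibroblasts, had 397.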

How the data were processed

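HEK293T cells were treated for 6 h with DMSO or 10 µM AA263, AA263yne or AA263-5 (3 samples each, 12 in all). The authors aligned paired-end reads to GRCh38.p7 with DNAstar SeqManPro, quantified them with ArrayStar and QSeq, and fitted DESeq2 (version 1.40.1 in the submitters' processing notes, which list GRCh38 and GRCh37 as builds). The annotation and filters are not given in the sources used here. The deposited signal is the mean that the authors obtained from DESeq2 over all samples of values divided by size factors, and it was identical in the 3 tables. These means sum to 36.6 M in each table. According to the methods, the fit was given RPKM values, which are scaled by gene length and library size. What entered was not settled here, so levels are given as deposited and per kilobase; if they were already divided by length, the deposited values are the ones to compare. Across the 13374 symbols with a mean of at least 10 and an annotated length (85.5% of 15638), the deposited mean had a Spearman rho of 0.0602 with transcript length and the value per kilobase of -0.303, a description across genes. The other columns hold the authors' own comparisons with vehicle (log2 fold changes, standard errors, statistics, p-values and adjusted p-values). They were not used, and no test between groups was made. The depth of each sample and the replicate error are unknown here, so no interval is given. In each table, 23 symbols read as dates or numbers and were left unnamed.

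The members and lists were chosen with earlier results of these data known. The named genes are the 9 members and, of the other pathway genes, those highest in their role or with a mean of at most 10; *NCOA1*, *NCOA2*, *NCOA3*, *NRIP1*, *ALDH1A3*, *RDH10*, *RDH13*, *RDH14*, *DHRS4*, *MED1* and *LRAT* were named in addition, with their values in view. Transcript lengths, windows and gene positions came from GENCODE 44 on GRCh38, and promoters from RefSeq on GRCh38.p14. The motif search and the search for shared runs were tested on simulated sequences. A comparison of the proteins was planned and not made. Some single genes of the pathway list are not reported here. Python 3.11.15, pandas 2.3.3 and scipy 1.17.1 were used.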

Additional observations from a re-analysis of the deposited data

How the results depend on the processing

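With the longest transcript, the union of exons and no division by length in place of the canonical transcript, the share of *RARA* among the RAR genes was 66.2%, 70.9% and 64.8%, that of *RXRB* among *RXRA* and *RXRB* 76.0%, 83.1% and 61.3%, and that of *CYP26A1* among the CYP26 genes 82.1%, 78.7% and 69.4%; each stayed the largest of its family. Of the 9 places in the order of levels, 7, 6 and 5 were the same under these alternatives, with shifts of at most 1, 2 and 3 places. Lowering the limit on the mean from 10 to 1 kept all 9 members, and raising it to 100 kept 7. Of the pathway genes, 25 passed the limit of 1 and 13 the limit of 100, against 19. Direct repeats with 1, 2, 3 or 4 bases between the hexamers were found in 0 of the 19 windows of the members, in order against 0.131%, 0.0399%, 0.0740% and 0.0854% of all windows, shares at which 0 of 19 says little. With 5 bases 2 members had one. With AGGTCA and AGTTCA alone, 5 bases apart, 1 member had one, *CYP26A1*, against 7 of all 35116 windows. With windows of 100 bases the part shared with other genes was 21.4% in *CYP26A1*, 10.6% in *RARA* and 6.42% in *RXRB*. No paired analysis was possible because the measure used is a mean over all samples, and for the same reason no replicate could be left out.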

Other observations

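The members were also placed among the 48 human nuclear receptor genes, a list written after the data were seen. Of these, 44 were listed, 40 of them with a mean of at least 10 and 29 with a mean of at least 100. Of all 23292 symbols, 15638 (67.1%) and 11642 reached these limits. Per kilobase, *RXRB* held place 5, *RARA* place 8, *RXRA* place 16, *RARG* place 18 and *RARB* place 21, and by the deposited mean they held places 6, 7, 12, 21 and 23 in the same order. These 5 of the 44 genes together made up 15.7% of the summed signal per kilobase of the 44. That share was computed with the canonical transcript alone. Per kilobase, the genes above *RXRB* were *NR2F6* at 1100, *NR2F1* at 667, *NR2F2* at 569.7 and *PPARG* at 469. The NR2F genes encode the COUP-TF proteins, which are known to bind direct repeats of the same hexamer as RAR and RXR dimers. *PPARG*, whose protein pairs with RXR, fell to 69.4 per kilobase when the union of exons was used as its length, below *RXRB* at 329, and its deposited mean of 831 was also below that of *RXRB*, 1283. By the deposited mean, *NR1D2* at 1592 and *NR2C1* at 1404 lay above *RXRB*, besides the NR2F genes. *RXRG* held place 29 per kilobase. No explanation of these levels was tested.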
